A study of Mus musculus with 2 samples.

Results

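Glycolysis splits glucose into pyruvate in the cytosol, and lactate dehydrogenase then turns pyruvate into lactate, which regenerates the oxidised cofactor that the pathway consumes. Hexokinase traps glucose in the cell by phosphorylation, an isomerase and an aldolase prepare and cleave the sugar, and the enzymes from glyceraldehyde-3-phosphate dehydrogenase to pyruvate kinase recover ATP. The mRNAs of these enzymes are abundant in proliferating fibroblasts, and several of them are known targets of the hypoxia-inducible transcription factor HIF-1. Their polysome association was described here with and without endoplasmic reticulum (ER) stress. The 10 enzymes were Hk2, Gpi1, Aldoa, Tpi1, Gapdh, Pgk1, Pgam1, Eno1, Pkm2 and Ldha, out of 28080 gene names on the array. They were found by the gene name printed for each spot, which gave 18 probes on 36 spots out of 41174 probes. Pkm2 is the name on the array for the gene now called Pkm.

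The cells were NIH3T3, an established line of mouse fibroblasts, grown in medium with 10% serum. The control group was left untreated, and the stress group received 10 µM thapsigargin, an inhibitor of the ER calcium pump, for 3 h. Cells of both groups were given cycloheximide, which holds ribosomes on mRNA, shortly before lysis. After a sucrose gradient of 10 to 40%, polysomal RNA (P) was labelled with Cy3 and free plus monosomal RNA (FM) with Cy5, and both were hybridised to 1 array per condition that carried RNA pooled from 3 preparations. Translation efficiency is given as log2 P/FM, and abundance as A, which averages the log2 P and log2 FM signals of a probe. A difference between conditions rests on 1 array each and could not be tested, so "higher" and "lower" below compare these arrays only. The SD between different probes of a gene is the nearest measure of error at hand. It reflects differences between probes on the same arrays and holds no error between preparations or between arrays. For log2 P/FM over 3562 gene names with several RefSeq mRNA probes its median was 0.30 in control and 0.28 in stressed cells, and for the change it was 0.34.

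All 7 fibroblast markers were detected, meaning A above 4.5 on both arrays, whereas 0 of 4 epithelial and 0 of 3 endothelial markers were. Of the haematopoietic markers Cd68 and Lyz2 were detected and Ptprc was not, and of the muscle markers Acta1 was detected and Ckm and Myog were not. The abundance of the ER stress genes was higher after thapsigargin, by 3.71 on the log2 scale for Ddit3, 4.19 for Herpud1, 1.96 for Hspa5, 1.84 for Xbp1 and 0.79 for Atf4. Between 42.5% and 46.3% of the spots were well above background in a channel, and none was saturated. P and FM RNA were labelled in the proportions found in the cells, so the input of P relative to FM was lower on the stress array by design. The values were not normalised between channels or arrays, and the median log2 P/FM of 10 spike-in probes was -0.40 on the control and -2.95 on the stress array. What was added of these spike-ins to each dye is not given in the sources used here, so the size of a change is read against the median change of all gene names, -0.71 by RefSeq mRNA probes.

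Several probes are shown first because the probe decides what was measured for Pkm2, Tpi1, Gapdh, Eno1 and Ldha. All sequences are probes of the array, 5′ to 3′, in lower case, with positions on mm9 (NCBI build 37) as the deposited files list them. Whether a probe lies in an exon, an intron or a UTR was not determined here. The Aldoa probe at chr7:133938601-133938615 on the minus strand is listed with an interval of only 15 bases, and the reason was not determined. For 3 probes the listed interval is longer than the 60 bases of the probe, by 110, 166 and 870 bases, so that their sequence is not contiguous in the genome. They are the Gapdh probe at chr6:125112105-125112274 on the minus strand, the Eno1 probe at chr4:149618134-149618359 on the plus strand and the Ldha probe at chr7:54109426-54110355 on the plus strand.
Gapdh: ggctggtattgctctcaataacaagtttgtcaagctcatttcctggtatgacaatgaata
Eno1: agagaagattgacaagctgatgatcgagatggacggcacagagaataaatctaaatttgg
Ldha: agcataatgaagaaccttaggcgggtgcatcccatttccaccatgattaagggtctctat
The design files list further transcripts for these probes. Both Gapdh probes also list the RNAs now named Gm5069 and Gm12070, both Ldha probes list Gm13315, and the Eno1 probe lists Eno1b, and signal from such near-identical copies cannot be told apart from that of the enzymes.

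For Pkm2 and Tpi1 the array holds a probe of the RefSeq mRNA and a probe of a cDNA clone elsewhere in the same gene. Their first 30 bases are printed to show that they are different sequences. The Pkm2 probes lie at chr9:59526759-59526818 (NM_011099) and chr9:59520400-59520459 (AK083076) on the plus strand, 6359 bases apart, and share no run longer than 5 bases. The Tpi1 probes lie at chr6:124760947-124761006 (NM_009415) and chr6:124763717-124763776 (AK053780) on the minus strand, 2770 bases apart, and share no run longer than 7 bases.
Pkm2 NM_011099: acaccagggaaaattaatgcctctaaaaca
Pkm2 AK083076: agattataaagactttctctgggcaaatct
Tpi1 NM_009415: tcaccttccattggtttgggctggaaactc
Tpi1 AK053780: caccagttaggggttagggtcgagaagaag
Hk2, the one enzyme that went the other way below, was read by a single probe at chr6:82675056-82675115 on the minus strand.
Hk2 NM_013820: tagtgagcgttttgtcatcatgtacagtag
This probe also lists 2 predicted transcripts (XM) that were not matched to a current gene, and signal from them cannot be told apart from that of Hk2.

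Across the pathway, 9 of the 10 mRNAs had less signal in polysomes and more in the free plus monosome fraction after 3 h of thapsigargin, by their RefSeq mRNA probes and against 44.0% of all gene names, and Hk2 had more in both with the larger increase in polysomes. By the threshold of the study for sensitive mRNAs, a change in log2 P/FM of -0.8 or lower, 8 of 10 enzymes were sensitive with all detected probes, against 46.1% of 11936 gene names. With RefSeq mRNA probes alone, a choice made after seeing the data, the count was 9 of 10 against 47.0% of 10188 gene names. The 1 gene that differs between these counts is Pkm2, through its probe of the clone AK083076. The median log2 P/FM of the 10 enzymes by RefSeq mRNA probes was 1.17 in control and 0.00 in stressed cells, against 0.33 and -0.28 over all gene names. With all detected probes these medians were 0.93 and -0.30, against 0.23 and -0.36. In stressed cells the enzymes thus lay 0.05 above all gene names with all detected probes and 0.29 above them with RefSeq mRNA probes. The median change was -1.31 for the enzymes with either choice of probes, and -0.71 over all gene names by RefSeq mRNA probes or -0.67 by all probes. These values are without normalisation. The difference between the median of the enzymes and that of all gene names, -0.64 with all probes, ran from -1.57 to 0.73 over the 16 other settings, and it was above 0 with loess (0.73), the processed signals of the scanner software (0.30) and its log ratio (0.04). Scaling to the spike-in probes gave changes above 0 for all 10 enzymes, and loess within each array gave values above 0 for 7 of the 10, so the sign of the negative changes depends on the scaling, while the change of Hk2 was positive under every setting tried.

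**Figure D1:**
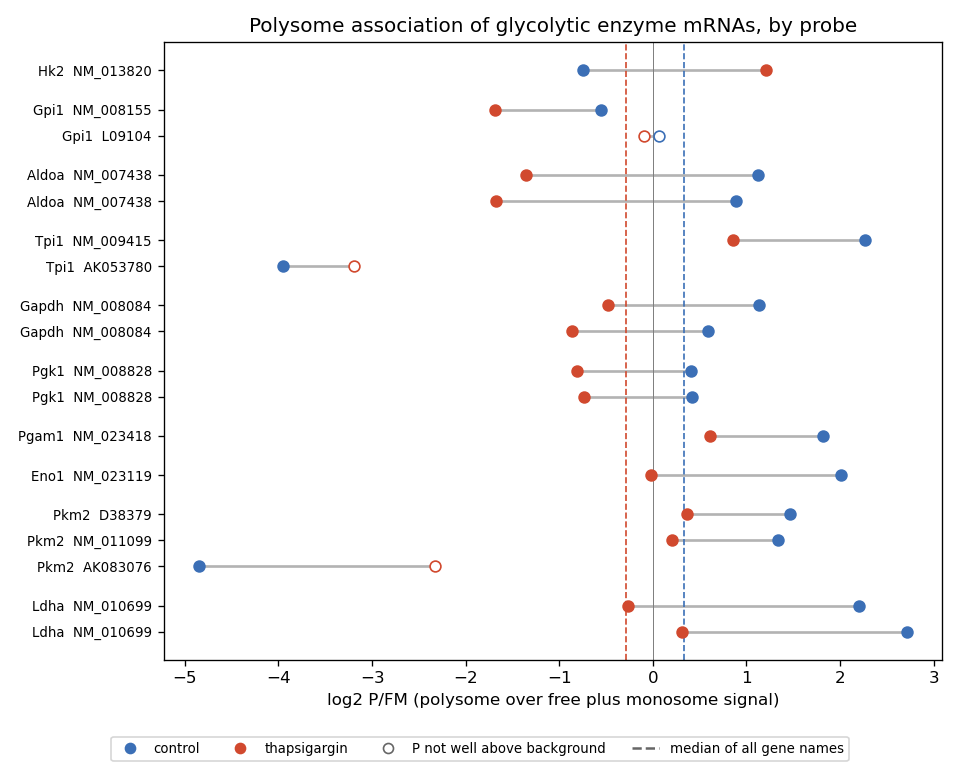
Log2 P/FM of each of the 18 probes of the 10 enzymes (rows, in pathway order) in control (blue) and thapsigargin-treated cells (red), 1 array each; open points are polysome signals not well above background, drawn as measured, and dashed lines are the medians of all gene names by RefSeq mRNA probes (0.33 in control, -0.28 with stress). Without normalisation the stress point lies left of the control point for every RefSeq mRNA probe except that of Hk2. Scaling to the spike-in probes turns this order for the mean of every enzyme other than Hk2 and Pkm2. The mean change of Pkm2 over its detected probes was 0.10 as measured without normalisation. The AK clone probes of Pkm2 and Tpi1 lie far to the left.

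In control cells the enzymes covered a wide range of translation efficiencies. Ldha (lactate dehydrogenase A) stood at 2.46, Tpi1 (triosephosphate isomerase) at 2.27, Eno1 (enolase) at 2.02 and Pgam1 (phosphoglycerate mutase) at 1.82. Below them lay Pkm2 (pyruvate kinase) at 1.33, Aldoa (aldolase A) at 1.01, Gapdh at 0.86 and Pgk1 (phosphoglycerate kinase) at 0.41. Gpi1 (glucose-6-phosphate isomerase) at -0.56 and Hk2 (hexokinase 2) at -0.75 had more signal in FM than in P. Of the 9 pairs of neighbours in this order, 5 differed by less than the median SD between probes of a gene. Only Pgk1 and Gpi1, at 0.97, differed by clearly more than the rest, whose differences ran from 0.15 to 0.49. A log2 P/FM of 2 or more was reached by 3 of the 10 enzymes against 3.33% of all gene names, and 0.8 or more by 7 of 10 against 31.6%. Above 0 were 8 of 10, against 63.0%. Gpi1 and Hk2 were below 0, which places them at the 19.5 and 15.3 percentiles of all gene names in control cells, while Ldha, Tpi1 and Eno1 were at the 99.2, 98.5 and 96.8 percentiles.

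In stressed cells the order was different. Hk2 now stood first at 1.21, followed by Tpi1 at 0.85, Pgam1 at 0.61, Pkm2 at 0.21 and Ldha at 0.02, so that 5 of 10 were above 0 against 37.9% of all gene names. Eno1 at -0.02, Gapdh at -0.67, Pgk1 at -0.78, Aldoa at -1.52 and Gpi1 at -1.68 were below 0. Of the 9 pairs of neighbours 5 differed by less than the median SD between probes, and the widest steps were those from Eno1 to Gapdh, 0.66, and from Pgk1 to Aldoa, 0.74. Ldha, first in control cells, lay in the middle of the order here, and Hk2 had moved from last to first.

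Hk2 catalyses the entry of glucose into the pathway and was the exception among the 10 enzymes. Its P signal was 196 in control and 1484 in stressed cells, and its FM signal was 329 and 642. Both fractions were thus higher with stress, P by 7.59-fold and FM by 1.95-fold. The log2 P/FM went from -0.75 to 1.21, a change of 1.96, which is the 97.6 percentile of all gene names and 2.67 above their median change. This met the definition of an inducible mRNA in the study, at or below 0 in control and higher by 1 or more, as did 9.59% of all gene names. Its abundance A was higher by 1.94, or 3.85-fold, and it was the only enzyme whose A changed by 1 or more, against 12.3% of gene names with an increase of that size. In pooled bulk RNA, more cells with the transcript and more transcript per cell cannot be told apart. The change of Hk2 rested on 1 spot, and over the processing settings it ranged from 1.80 to 4.51 and stayed 1.41 to 2.97 above the median of all gene names.

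Gpi1 catalyses the next step, the conversion of glucose-6-phosphate to fructose-6-phosphate. Its RefSeq probe was printed as 10 spots, of which 9 were kept after the outlier flags. In control cells its log2 P/FM over these spots ran from -0.63 to -0.46 with a median of -0.57, and in stressed cells from -1.77 to -1.56 with a median of -1.72. The spots of both arrays did not overlap, and the change was -1.12 ± 0.08 (SD, 9 spots of 1 probe), where the SD covers error on the array only. The P signal was 28737 and then 24021, and the FM signal was 42340 and then 77178. Gpi1 was the enzyme with the lowest log2 P/FM in stressed cells, -1.68, the 9.68 percentile of all gene names. The other probe, of the clone L09104, was not well above background in either channel on either array.

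Aldoa cleaves fructose bisphosphate, and Tpi1 interconverts the triose products. The 2 Aldoa probes share a run of 27 bases, so they are not independent. Their P signals were 101047 and 93612 in control and 37960 and 34406 in stressed cells, and their FM signals were 46267 and 50748, then 97279 and 109886. P was lower by 2.69-fold and FM higher by 2.13-fold on average, and log2 P/FM went from 1.13 to -1.36 at one probe and from 0.88 to -1.68 at the other. The mean change of -2.52 was the most negative of the 10, at the 5.39 percentile of all gene names. Tpi1 showed another balance of the fractions. Its P signal was 41699 and then 18211, lower by 2.29-fold, while its FM signal of 8668 and then 10082 was higher by only 1.16-fold. The log2 P/FM of 2.27 became 0.85, a change of -1.41, or -0.70 relative to all gene names. Tpi1 was therefore sensitive by its change and also resistant by its level, defined as 0.8 or more on both arrays, which 3.12% of all gene names reached and no other of the 10 enzymes did. Its value in stressed cells, from 1 spot, lay above 0.8 by less than the median SD of 0.28 between probes of a gene. Its A was 0.49 lower, the only decrease in A beyond the median SD of 0.18 between probes of a gene. Without background subtraction the Tpi1 change turned to 0.23, with its clone probe then detected and averaged in.

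Gapdh, which oxidises glyceraldehyde-3-phosphate and is widely used as a reference gene, had P signals of 44628 and 26399 at its 2 probes in control and of 20645 and 17300 in stressed cells. The FM signals were 20362 and 17560, then 28767 and 31598. The log2 P/FM values were 1.13 and 0.59 in control and -0.48 and -0.87 in stressed cells. Both probes were thus lower in P, higher in FM and lower in log2 P/FM, with changes of -1.61 and -1.46 that differed by less than the usual SD between probes. Relative to all gene names the change of Gapdh was -0.82. The 2 probes went in opposite directions in A, by -0.31 and 0.12, with a mean of -0.09.

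Pgk1 makes the first ATP of the pathway by substrate phosphorylation. Its probes share a run of 38 bases, and one was printed as 10 spots. These ran from 0.36 to 0.51 in control cells with a median of 0.39 and from -0.87 to -0.73 in stressed cells with a median of -0.82. They did not overlap, and the change was -1.22 ± 0.05 (SD, 10 spots of 1 probe), where the SD again covers error on the array only. The P signal of that probe was 31206 and then 21958, and its FM signal 23558 and then 38533. The second probe, with a P signal of 15872 and then 14530 and an FM signal of 11898 and then 24251, went from 0.42 to -0.74. Pgam1, which moves the phosphate within phosphoglycerate, had a P signal of 47393 and then 37594 and an FM signal of 13416 and then 24624. Its log2 P/FM went from 1.82 to 0.61, a change of -1.21. By the means of their RefSeq mRNA probes, P was lower by 1.20-fold to 1.26-fold in Pgk1, Pgam1 and Gpi1, and FM was higher by 1.82-fold to 1.84-fold. Relative to the median of all gene names the changes of these genes were -0.48 for Pgk1, -0.50 for Pgam1 and -0.42 for Gpi1, and loess moved them above 0.

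Eno1, which forms phosphoenolpyruvate, and Ldha stood with Aldoa at the other end. The Eno1 probe gave a P signal of 3630 and then 1918 and an FM signal of 898 and then 1942, and log2 P/FM went from 2.02 to -0.02. The change of -2.03 was 1.32 below the median of all gene names. Ldha had P signals of 39780 and 28290 in control and of 28343 and 13674 in stressed cells. Its FM signals of 8618 and 4320 in control became 34099 and 11003, a mean increase of 3.17-fold that was the largest of the 10 enzymes. The 2 Ldha probes went from 2.21 to -0.27 and from 2.71 to 0.31, and they differed by 0.58 in stressed cells but by only 0.08 in the change. At -2.44 Ldha was at the 6.35 percentile of all gene names. Aldoa, Eno1 and Ldha were below the median change of all gene names under the main processing and each of 15 other settings.

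Pkm2 forms pyruvate and ATP from phosphoenolpyruvate. Its RefSeq probe had a P signal of 5626 and then 4156 and an FM signal of 2234 and then 3604, so that log2 P/FM went from 1.33 to 0.21, a change of -1.13, or -0.42 relative to all gene names. The probe of the GenBank entry D38379, at chr9:59526907-59526966, gave 1.46 and 0.36, a change of -1.10. At this probe P was not lower, with a signal of 13267 and then 13859, while FM was 4818 and then 10763 and A was higher by 0.61. The probe of the clone AK083076 behaved differently. Its signal lay almost wholly in FM in control cells, 828 against 28.7 in P, a log2 P/FM of -4.85. In stressed cells FM was 69.7, lower by 11.9-fold, and P was not well above background, so that log2 P/FM was at most -2.33 and the change at most 2.52. Averaging all 3 probes gave a change of at most 0.10 for Pkm2, which is why it was not sensitive in the count over all probes.

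The clone probe of Tpi1 had the same pattern. Its FM signal was 394 in control, against 25.4 in P, and 39.9 in stressed cells, lower by 9.87-fold, and the log2 P/FM of -3.95 became at most -1.84. On the whole array, 637 probes of AK clones were detected in control cells for gene names that also had a detected RefSeq mRNA probe. Their log2 P/FM in control cells differed by a median of -1.31 from that of the RefSeq probes of the same gene. An FM signal lower by 3 or more on the log2 scale after stress, as at the Pkm2 and Tpi1 clones, occurred at 30 of these 637 probes (4.71%) and at 4 of 15096 detected RefSeq mRNA probes (0.0265%). A log2 P/FM at least 6 below that of the RefSeq probes, as at both clones, occurred at 11 of 637 (1.73%). Which RNA these probes detected was not tested.

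**Figure D2:**
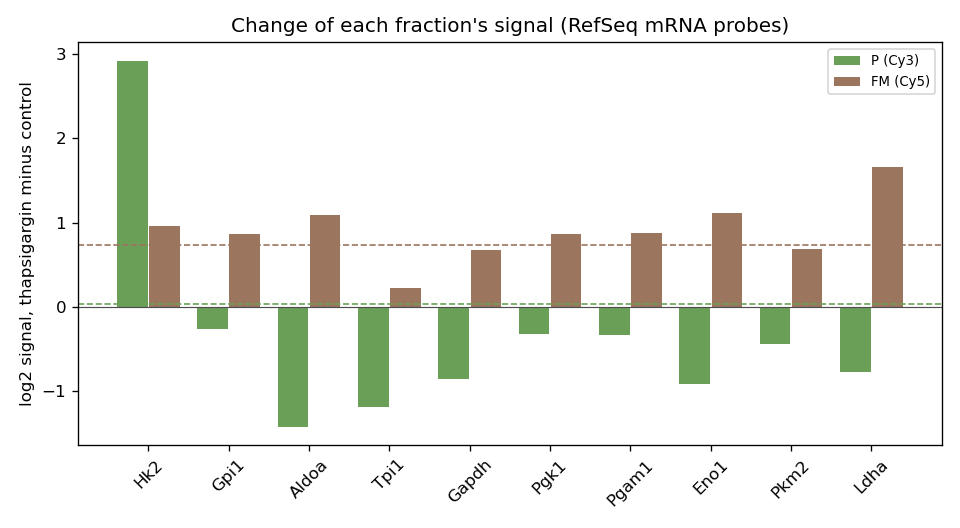
Change in the log2 signal of the polysome fraction P (green) and of the free plus monosome fraction FM (brown), thapsigargin minus control, mean of the RefSeq mRNA probes of each enzyme in pathway order; dashed lines are the medians over all gene names (0.03 for P, 0.73 for FM). Without normalisation P is lower for 9 of 10 enzymes and FM is higher for all 10, signs that spike-in scaling and loess turn for the medians of the enzymes.

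Seen by fraction, P was lower in 9 of 10 enzymes, against 48.6% of all gene names, and FM was higher in 10 of 10, against 86.5%. The median change over the 10 enzymes was -0.60 in P and 0.87 in FM, against 0.03 and 0.73 over all gene names. The enzymes thus differed from the array as a whole in P by -0.63 and in FM by 0.14. The median SD between probes of a gene was 0.23 for the change in P and 0.26 for that in FM. Abundance changed little outside Hk2, with changes in A of the RefSeq mRNA probes between -0.49 and 0.45 and a median of 0.13 over the other 9, against 0.39 for all gene names.

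The brightness of a probe moved with the change on the whole array, and 7 of the enzymes were among the brightest genes. In the 258 gene names with a mean A of 13 to 18, which hold Gapdh, Aldoa, Pgk1, Ldha, Tpi1, Pgam1 and Gpi1, the median change in log2 P/FM was -2.00 and 85.3% were sensitive. In the 3712 gene names with a mean A of 4.5 to 7 the median was -0.22 and 31.0% were sensitive. Set against genes of the same brightness, 5 of the 7 bright enzymes lay above the median change, by 0.47 for Gapdh, 0.59 for Tpi1, 0.79 for Pgam1, 0.81 for Pgk1 and 0.88 for Gpi1. Aldoa lay at -0.52 and Ldha at -0.44 from it. Eno1, in the class from 9 to 11, lay at -0.78 from its class median and Pkm2, in the class from 11 to 13, at 0.58. Hk2 was 2.60 above the median of genes with a mean A of 7 to 9. Most of the bright enzymes thus had smaller negative changes than the median of equally bright mRNAs on the same arrays, and the part of brightness in the changes was not tested.

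**Figure D3:**
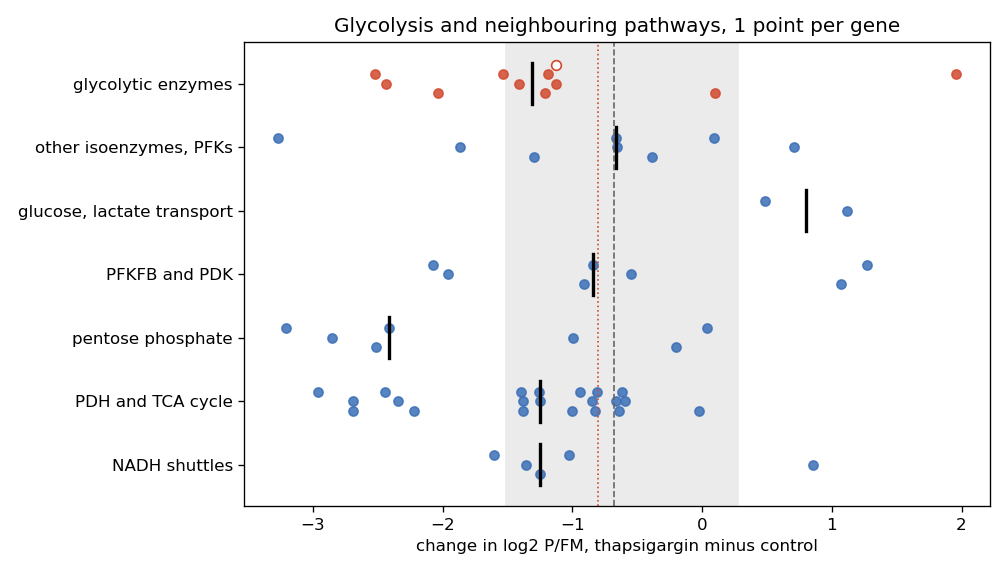
Change in log2 P/FM, thapsigargin minus control, of each detected gene of the 10 glycolytic enzymes (red, with the RefSeq-only value of Pkm2 as an open point) and of 6 neighbouring lists (blue), with list medians as black bars; grey spans the middle 50% of all gene names, the dashed line is their median and the dotted line the threshold of -0.8. By all detected probes the pentose phosphate genes have the lowest median (-2.41, or -1.76 by RefSeq mRNA probes) and the transporters the highest (0.80). Spike-in scaling moves every point right by the same amount and so turns most negative values positive.

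The neighbours of the pathway were described from lists written with earlier results of these data known. Their values are means over all detected probes of a gene unless stated otherwise. Among the other isoenzymes and phosphofructokinases, 8 of 17 genes were detected. Hk3, Aldoc, Gapdhs, Pgk2, Pgam2, Pklr and Ldhc were among those that were not. Of the 8, 3 were sensitive, against 46.1% of all gene names. Ldhb, the other lactate dehydrogenase subunit, went from 2.59 to -0.67, and its change of -3.27 was below 0 and below the median of all gene names under all 16 settings. Pfkl, a phosphofructokinase subunit, went from 1.84 to -0.03. Eno2, the second enolase, had a change of 0.71, and Bpgm, which makes bisphosphoglycerate, one of 0.10. Both detected lactate dehydrogenase subunits thus moved towards FM, Ldha with the exception of spike-in scaling, whereas Eno1 and Eno2 went in opposite directions, except with spike-in scaling, where both were above 0.

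Both detected transporters and 2 of the 7 detected regulators changed in the direction of Hk2, as did 3764 of 11936 gene names by all probes. So few genes cannot be set apart from that share. Slc2a1, the glucose transporter GLUT1, went from 0.20 to 1.32, and Slc16a1, a lactate transporter, from 0.37 to 0.86, while Slc2a3, Slc2a4 and Slc16a3 were not detected. Pfkfb3, which makes the main activator of phosphofructokinase, went from 0.23 to 1.50 with A higher by 1.39. Pdk4, a kinase that blocks pyruvate dehydrogenase, changed by 1.07. Slc2a1, Slc16a1 and Pdk4 were above 0 and above the median of all gene names under all 16 settings, and so was Pfkfb3 under the 15 that could measure it. In the same list of 7 detected regulators 4 were sensitive, against 46.1% of all gene names. Pdk2 and Pdk3 changed by -2.07 and -1.96. The list therefore had no common direction.

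The pentose phosphate pathway, which branches off at glucose-6-phosphate, had a median change of -2.41 over 7 detected genes. Of these 5 were sensitive, against 46.1% of all gene names. With RefSeq mRNA probes alone the median was -1.76 over 6 genes, of which 4 were sensitive, against 47.0%. The dehydrogenases of the pathway, G6pdx and Pgd, changed by 0.04 and -0.20. Pgls, the lactonase that acts between them, changed by -3.20 and Taldo1 by -2.85. Of 21 genes for pyruvate dehydrogenase and the tricarboxylic acid cycle all were detected and 16 were sensitive, with a median of -1.25. The median A of this list was 9.64 in control and 9.84 in stressed cells. Of all gene names with a mean A of 9 to 11, 64.8% were sensitive by RefSeq mRNA probes. Suclg1 changed by -2.96, Idh3g by -2.69 and Ogdh by -0.02 with A higher by 1.09. Of the shuttles that carry reducing equivalents of glycolysis into mitochondria, 5 of 6 genes were detected. Of these 4 were sensitive, against 46.1% of all gene names. Mdh1 changed by -1.60, Got1 by -1.35 and Gpd1l by -1.03, and Gpd2, the mitochondrial glycerol phosphate dehydrogenase, by 0.85. Spike-in scaling placed the medians of these 3 lists above 0, and relative to all gene names the pentose phosphate and the pyruvate dehydrogenase and cycle lists stayed lower under all 16 settings.

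The gene names closest to the median of the enzymes, by Euclidean distance over the log2 P/FM values of the 2 arrays among 5896 coding gene names with A above 7, were 0610009D07Rik, Plin2, Nup35, Lasp1 and Akirin1, at distances of 0.010 to 0.032. A total of 113 gene names lay within 0.2, so the pattern of the median enzyme was shared by many mRNAs.

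The promoters of the enzymes are shown for those with the most copies of ACGTG, the core of the hypoxia response element that also lies within the E-box CACGTG. The 250 bases before each start were taken from a RefSeq table of GRCm38.p6 and searched on both strands, so that CACGTG counts on both. ACGTG occurred in 7 of 16 promoters of the 10 genes, from Aldoa, Pgk1, Pkm, Ldha, Pgam1 and Hk2, and in 16.6% of all 32851 promoters. By gene this was 6 of 10 against 18.5% of 27025 genes. The last 150 bases before the start are printed 5′ to 3′ along the gene, with ACGTG or its reverse complement in capitals. They lie at chr7:46845654-46845803 on the plus strand for Ldha, chrX:106186950-106187099 on the plus strand for Pgk1 and chr6:82774455-82774604 on the minus strand for Hk2.
Ldha: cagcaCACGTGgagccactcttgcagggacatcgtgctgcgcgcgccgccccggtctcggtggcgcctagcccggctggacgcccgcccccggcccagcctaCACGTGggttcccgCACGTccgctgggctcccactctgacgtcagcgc
Pgk1: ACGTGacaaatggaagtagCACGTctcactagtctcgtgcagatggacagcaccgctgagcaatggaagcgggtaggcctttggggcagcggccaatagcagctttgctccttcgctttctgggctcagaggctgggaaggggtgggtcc
Hk2: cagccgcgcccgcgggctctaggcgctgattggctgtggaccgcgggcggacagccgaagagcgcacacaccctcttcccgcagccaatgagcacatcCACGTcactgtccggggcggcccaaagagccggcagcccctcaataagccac
Of the genes that hold these letters, Hk2 had a positive change in log2 P/FM. Aldoa, Pgk1, Ldha and Pgam1, and Pkm2 by its RefSeq probe, had negative ones without normalisation. Gapdh, Eno1, Tpi1 and Gpi1 do not hold them in the searched windows, and all 4 had negative changes too. Spike-in scaling turned these negative changes in both groups. Whether the letters bear on abundance or on log2 P/FM was not tested. A match is a description of the sequence.

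**Figure D4:**
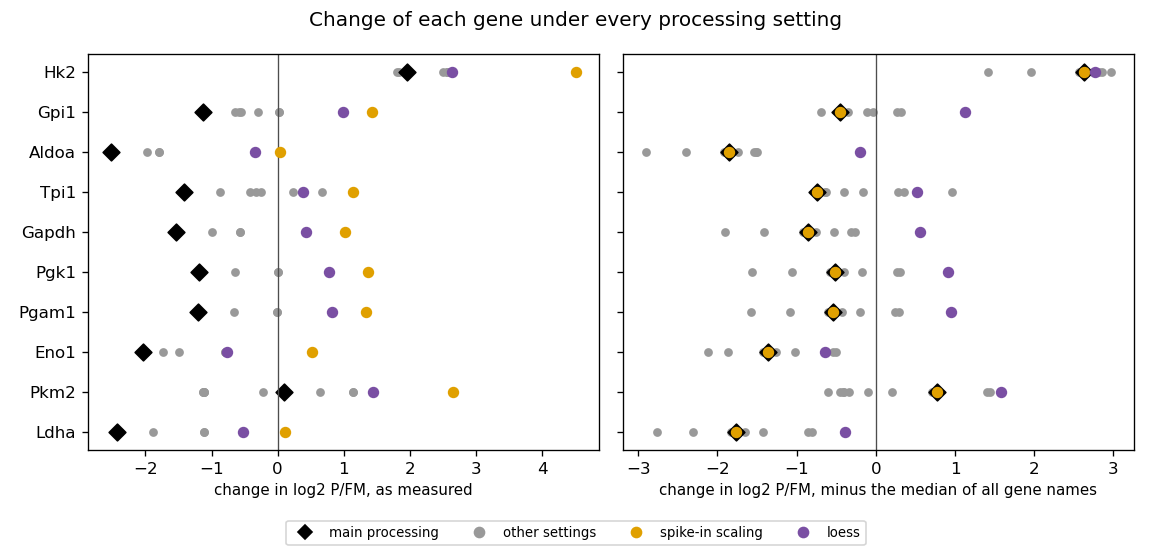
Change in log2 P/FM of each enzyme by the mean of its detected probes under every processing setting, as measured (left) and after subtraction of the median over all gene names in that setting (right); diamonds are the main processing, yellow points spike-in scaling and purple points loess. Hk2 lies right of 0 in every setting in both panels, Aldoa, Eno1 and Ldha lie left of 0 in every setting in the right panel, and in the left panel spike-in scaling puts all 10 genes above 0.

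The negative changes differed in how they stood up to the processing. Relative to all gene names, Aldoa, Eno1 and Ldha were lower under all 16 settings, Gapdh under 14 of 15, Pgk1, Pgam1 and Gpi1 under 13 of 16 and Tpi1 under 12. Pkm2, by the mean of its detected probes, was lower under 6. In Hk2 the change was higher than that of all gene names under all 16.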

How the data were processed

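The data were 2 two-colour Agilent mouse arrays of 60-base probes, 1 for untreated and 1 for thapsigargin-treated NIH3T3 cells. The labels give the groups and the time of treatment, and the methods of the paper give the dose and the pooling of 3 preparations. The P and FM RNA were labelled in proportion to their amounts, 300 ng in total. The paper states that P held more RNA than FM in control cells and that FM held more than P with stress. The input of P relative to FM was therefore lower on the stress array by design. Its part in the changes was not tested.

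Per the file headers, the authors extracted the deposited intensity values with Feature Extraction 10.7.1. The deposited files also hold dye-normalized intensity values, a log10 ratio of Cy5 to Cy3 and quality flags (other units, 0 or 1). The authors' table of log2 ratios, without normalization, held 11483 rows and 9 of the 10 enzymes.

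Signals were the spot mean less its median local background, with a floor of 0.5, as in the methods of the study. Of 43379 spots, 295 (0.680%) flagged as outliers were left out. Spots were averaged by probe, then probes with A above 4.5 on both arrays by gene name. Probes not well above background give a bound. Named genes were all enzymes and their probes, the 2 highest and 2 lowest changes of each list, 5 ER stress genes and the 5 nearest gene names, of which some list members are not reported here. The enzymes, lists and rules were chosen with earlier results of these data known. The steps were tested on simulated data. Settings varied were background, normalization, filters, flags, unit and probes. Python 3.11.15, pandas 2.3.3, R 4.3.3 and limma 3.58.1 were used. Gene names were matched to RefSeq (GRCm38.p6), and all 10 matched. The number of arrays limits the precision.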

Additional observations from a re-analysis of the deposited data

How the results depend on the processing

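No paired analysis was possible because each condition has 1 array. The cause of the changes between settings was not tested. Of 106 values for the medians and the count, 72 moved by less than the SD between probes of a gene, or for the count by less than 1.5 times.

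The median change in log2 P/FM of the enzymes, -1.31, was 0.60 with loess, 1.24 with spike-in scaling, -0.0017 with the processed signals of Feature Extraction, -0.22 with its log ratio and -0.76 with centring on each array median. The count of 8 sensitive enzymes (46.1% of all gene names) was 0 with loess (27.4%), 0 with spike-in scaling (0.570%), 2 with the processed signals (34.4%), 2 also with the log ratio (32.9%), 5 with centring (29.8%) and 14 of 16 with each probe by itself (44.4%). The shares of the enzymes thus lay below those of all gene names with loess, the processed signals and the log ratio. With spike-in scaling so few enzymes cannot be told apart from a share of 0.570%. The control median of 0.93 was 0.19 with loess, 1.34 with spike-in scaling, 1.38 with the log ratio and 1.33 with the authors' log2 ratios. The stress median of -0.30 was 0.0029 with A above 5.5, with A above 7, with probes well above background and with RefSeq mRNA probes only, 0.023 with the authors' ratios, 0.48 with loess, 0.89 with the log ratio, 0.74 with the processed signals, 2.65 with spike-in scaling and -0.63 without a filter. The median change in A of 0.18 was -0.092 with normexp and -0.26 with the processed signals. That of the P signal, -0.62, was 0.20 with loess, 0.65 with spike-in scaling and -0.35 with centring, and that of the FM signal, 0.87, was -0.12, -0.40 and 0.60 in that order and -0.11 with the processed signals.

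Among single enzymes, the sign was turned as follows. Spike-in scaling gave changes of 1.02 for Gapdh, 0.028 for Aldoa, 1.36 for Pgk1, 0.52 for Eno1, 0.11 for Ldha, 1.14 for Tpi1, 1.34 for Pgam1 and 1.43 for Gpi1. Loess gave 0.42 for Gapdh, 0.77 for Pgk1, 0.39 for Tpi1, 0.82 for Pgam1 and 0.99 for Gpi1. The processed signals gave 0.0064 for Pgk1, 0.015 for Gpi1 and 0.66 for Tpi1, the log ratio 0.0064 for Pgk1 and 0.015 for Gpi1, and no background subtraction 0.23 for Tpi1. The Pkm2 mean of 0.10 became -0.22 with normexp, -1.13 with the authors' ratios and with RefSeq mRNA probes only, and -1.11 with A above 5.5, with A above 7 and with probes well above background. Other values kept their sign but passed above -0.8. These were loess for Aldoa (-0.34), Eno1 (-0.77) and Ldha (-0.52), the processed signals and the log ratio for Gapdh (-0.57), Eno1 (-0.798) and Pgam1 (-0.0098), the log ratio for Tpi1 (-0.42), normexp for Tpi1 (-0.26) and Gpi1 (-0.30), no background subtraction for Gpi1 (-0.55), no filter for Tpi1 (-0.33) and Gpi1 (-0.64), and centring for Pgk1 (-0.64), Pgam1 (-0.66) and Gpi1 (-0.58). Pkm2 by its mean reached 2.65 with spike-in scaling, 1.45 with loess, 1.15 with the processed signals and 0.65 with centring.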
